A study of Mus musculus with 9 samples.

Results

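The nuclear genes of oxidative phosphorylation were taken by the start of their symbol (Nduf, Sdha, Sdhb, Sdhc, Sdhd, Uqcr, Cox4, Cox5, Cox6, Cox7, Cox8 or Atp5) among protein-coding genes of the RefSeq annotation of GRCm38, which gave 100 of 21631 genes. They were chosen by name and by no measured value. The prefixes take in 78 subunits of the 5 respiratory complexes, 12 assembly factors (Ndufaf1 to Ndufaf8 and Sdhaf1 to Sdhaf4) and 10 tissue-restricted isoforms or gene copies, so the set is wider than subunits alone. The subunits encoded by mitochondrial DNA were not analysed here. ATAC-seq, which marks accessible DNA through adapters that the transposase Tn5 cuts into it, was carried out on FACS-sorted mouse peritoneal macrophages of 3 groups with 3 samples each. For converted macrophages, mice were injected with thioglycollate (2 ml), which recruits monocytes to the peritoneum as an irritant, and were fed tamoxifen for 8 weeks. The labels give resident macrophages no treatment of their own. Monocyte-derived macrophages were harvested on day 4 after 2 ml of thioglycollate. All mice carried Cx3cr1CreERT2-IRES-EYFP/+ and Rosa26-stopfl-tdTomato/+, a Cre active under tamoxifen in cells that use the Cx3cr1 promoter and a reporter that Cre switches on, and all received IL-4 complexes (5 µg of IL-4 with 25 µg of anti-IL-4) on alternate days over the last 4 days. Treatment and cell origin differ together between the groups and cannot be told apart.

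The respiratory chain passes electrons from NADH, through complex I, and from succinate, through complex II, to coenzyme Q, complex III, cytochrome c and complex IV, and complex V uses the resulting proton gradient to make ATP. Most of its subunits are encoded in the nucleus by genes that nearly all cells use, and their promoters are known for binding NRF1, ETS factors such as GABP, YY1 and the ERR receptors. In macrophages, alternative activation by IL-4 is known to go with oxidative metabolism, and inflammatory activation with glycolysis.

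The deposited data are 1 merged list of peaks per group, so replicates give no spread for any value here, no test between groups is possible, and the sequencing depth is unknown. A missing peak may be closed chromatin or a site below detection, and a site open in some of the cells cannot be told apart from a site weakly open in all of them. The lists differ in length, with 15552 converted, 24348 resident and 33694 monocyte-derived peaks, and in their cutoff, since 0 converted, 5476 resident and 1267 monocyte-derived peaks have a p-value over 1e-05. Each peak's p-value is the authors' own and ends at a floor of 1e-12. A start peak here is a peak that overlaps 1 kb on either side of a gene's annotated start. Intervals are 95% Wilson intervals and cover counting over genes only. Of 8 macrophage markers all had a region in at least 1 list, 4 regions in converted, 13 in resident and 21 in monocyte-derived cells, although start peaks stood at 1, 3 and 6 of these 8 genes in that order of groups. Markers of B cells had 2, 1 and 2 regions in the same order (all at Cd79a), markers of T cells 0, 0 and 2, markers of neutrophils 0, 1 and 1, and markers of mesothelial or stromal cells 0, 1 and 1. Ms4a1, Pax5, Cd3e, Cd4, Cd8a, Camp, Ly6g, Cpa3, Kit, Mcpt4, Msln, Upk3b and Wt1 had none, and none of these non-macrophage markers had a start peak.

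The promoters of 9 of the genes are printed because they show patterns found below. A start peak stood in all 3 lists (Sdhd, Atp5c1) or in the resident and monocyte-derived lists (Atp5g3). It stood in the monocyte-derived list only at Cox6a1 and in no list at Uqcrc1. Cox7a2 with Cox7a1 and Cox8a with Cox8b contrast a common with a muscle isoform. A start peak in the resident list only, found at Atp5l, is not shown. The 9 genes were picked after their values were seen. Each runs 5′ to 3′ on the gene's strand from 250 bases before to 50 after the RefSeq start (GRCm38.p6). Capitals mark matches, on either strand, to the NRF1 motif (given by name alone) or to CCGGAAG (ETS), AAGATGG (YY1) or TCAAGGTCA (ERR). The Sdhd promoter is chr9:50603800-50604099 (minus strand), Atp5c1 chr2:10080383-10080682 (minus), Atp5g3 chr2:73911277-73911576 (minus), Cox6a1 chr5:115348909-115349208 (minus), Uqcrc1 chr9:108936398-108936697 (plus), Cox7a2 chr9:79759804-79760103 (minus), Cox7a1 chr7:30183921-30184220 (plus), Cox8a chr19:7217567-7217866 (minus) and Cox8b chr7:140900397-140900696 (minus).
Sdhd: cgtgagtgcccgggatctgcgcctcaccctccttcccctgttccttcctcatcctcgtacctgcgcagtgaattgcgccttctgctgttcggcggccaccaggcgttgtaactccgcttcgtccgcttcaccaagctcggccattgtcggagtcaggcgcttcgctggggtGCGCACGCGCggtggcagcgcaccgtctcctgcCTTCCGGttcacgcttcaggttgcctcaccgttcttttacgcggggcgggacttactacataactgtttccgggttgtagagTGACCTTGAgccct
Atp5c1: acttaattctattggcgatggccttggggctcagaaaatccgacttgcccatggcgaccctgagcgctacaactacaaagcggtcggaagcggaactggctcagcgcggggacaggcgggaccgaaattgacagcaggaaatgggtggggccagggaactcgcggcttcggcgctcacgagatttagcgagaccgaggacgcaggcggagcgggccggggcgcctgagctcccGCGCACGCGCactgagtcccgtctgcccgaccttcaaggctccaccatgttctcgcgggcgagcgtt
Atp5g3: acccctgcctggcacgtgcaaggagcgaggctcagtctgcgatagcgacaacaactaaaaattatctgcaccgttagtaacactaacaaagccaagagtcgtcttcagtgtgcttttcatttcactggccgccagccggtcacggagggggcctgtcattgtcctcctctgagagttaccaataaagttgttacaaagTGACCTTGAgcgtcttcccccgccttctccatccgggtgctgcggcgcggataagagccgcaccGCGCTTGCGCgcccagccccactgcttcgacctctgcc
Cox6a1: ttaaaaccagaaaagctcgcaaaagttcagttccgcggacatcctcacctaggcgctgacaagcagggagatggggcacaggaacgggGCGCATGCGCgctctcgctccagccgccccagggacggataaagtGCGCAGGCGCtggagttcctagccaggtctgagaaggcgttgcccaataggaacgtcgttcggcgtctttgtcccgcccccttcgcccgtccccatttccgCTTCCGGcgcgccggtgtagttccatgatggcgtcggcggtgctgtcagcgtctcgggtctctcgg
Uqcrc1: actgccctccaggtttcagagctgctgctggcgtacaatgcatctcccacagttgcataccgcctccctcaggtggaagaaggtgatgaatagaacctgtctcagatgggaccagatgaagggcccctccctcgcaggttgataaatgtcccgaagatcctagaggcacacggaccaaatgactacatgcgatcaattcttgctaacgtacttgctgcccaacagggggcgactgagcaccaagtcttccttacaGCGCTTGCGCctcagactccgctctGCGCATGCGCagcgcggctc
Cox7a2: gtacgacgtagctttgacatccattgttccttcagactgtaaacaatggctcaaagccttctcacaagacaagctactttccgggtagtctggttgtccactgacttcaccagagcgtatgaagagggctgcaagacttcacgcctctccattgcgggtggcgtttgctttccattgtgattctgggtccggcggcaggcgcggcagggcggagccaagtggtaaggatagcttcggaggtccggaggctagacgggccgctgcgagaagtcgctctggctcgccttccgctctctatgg
Cox7a1: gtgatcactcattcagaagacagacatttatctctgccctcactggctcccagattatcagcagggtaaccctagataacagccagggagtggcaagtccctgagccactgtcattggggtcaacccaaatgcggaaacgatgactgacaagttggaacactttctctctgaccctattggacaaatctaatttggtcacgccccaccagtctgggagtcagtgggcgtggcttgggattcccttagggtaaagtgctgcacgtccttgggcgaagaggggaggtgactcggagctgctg
Cox8a: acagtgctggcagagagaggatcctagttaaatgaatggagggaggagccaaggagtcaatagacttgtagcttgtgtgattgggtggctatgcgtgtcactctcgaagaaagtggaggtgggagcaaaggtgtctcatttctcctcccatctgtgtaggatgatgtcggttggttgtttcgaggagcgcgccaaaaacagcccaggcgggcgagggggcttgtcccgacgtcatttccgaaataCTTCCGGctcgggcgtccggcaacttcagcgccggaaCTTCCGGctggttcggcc
Cox8b: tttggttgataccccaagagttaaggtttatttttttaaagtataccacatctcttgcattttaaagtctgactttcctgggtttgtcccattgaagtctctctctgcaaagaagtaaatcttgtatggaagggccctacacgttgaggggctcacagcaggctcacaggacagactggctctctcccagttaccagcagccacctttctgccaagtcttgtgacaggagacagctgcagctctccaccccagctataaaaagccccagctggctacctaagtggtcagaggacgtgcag

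Sdhd, a membrane anchor of complex II, holds an NRF1 match at position -79 from its start, an ETS match at -46 and an ERR match at 37. Of its 300 promoter bases, 39 lay in converted, 75 in resident and 164 in monocyte-derived peaks, and 1, 0 and 3 of its 3 matches lay inside peaks of these lists. In Atp5c1, the gamma subunit of the F1 motor, the NRF1 match at -17 lay inside the peak in all 3 lists, which covered the same 256 promoter bases in each. Atp5g3, a c-ring subunit, had an ERR match at -52 and an NRF1 match at 13. Its peaks covered 0 converted, 87 resident and 162 monocyte-derived bases, with 0, 1 and 2 of the matches inside. Cox6a1 of complex IV held NRF1 matches at -162 and -117 and an ETS match at -16, with 125 monocyte-derived bases in peaks and 0 in the other lists. The ETS match lay inside the monocyte-derived peak and the NRF1 matches lay outside it. Uqcrc1, a core protein of complex III, carried 2 NRF1 matches, at 6 and 31, and had no base of its promoter in a peak of any list. A match is a run of letters and does not show that a factor binds.

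Taken over 82 of the genes with an entry in the RefSeq promoter table, 21 promoters (25.6%) held the NRF1 sequence, against 7.25% of all 17274 promoters and 12.8% of the 8213 genes with a start peak in any list. The ETS sequence stood in 22 (26.8%), against 13.1% of all promoters and 22.2% of those with a start peak. YY1 stood in 12 (14.6%), against 7.24% and 8.67%, and ERR in 2 (2.44%), Sdhd and Atp5g3, against 0.38% of all promoters. The GC box GGGCGG of SP and KLF factors was in 39 (47.6%), against 49.8% of all promoters and 72.3% of promoters with a start peak. CCAAT of NFY was in 35 (42.7%), against 42.7% of all, and the cyclic AMP element TGACGTCA in 4 (4.88%), against 2.58% of all. NRF1 matches fell in all 5 complexes save that complex IV had Cox6a1 alone and complex III Uqcrc1 alone. The restricted isoforms with a promoter entry, 5 genes, held no NRF1, ETS, YY1 or ERR match. They had a median of 7 CpG in 300 bases, against 20 over the 82 genes and 15 over all promoters. All of them save Cox7a1 lacked a start peak. Over all genes with a start peak in no list, the median was 5 CpG, and 2.24% held NRF1 and 4.87% ETS, so these 5 genes did not stand apart from that class. By start peaks, NRF1 matches were in 11 of 33 promoters with a start peak in all 3 lists, 9 of 39 with it in 1 or 2 lists and 1 of 10 with it in none. Over all genes the shares for these 3 classes were 12.8%, 12.7% and 2.24%.

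**Figure D1:**
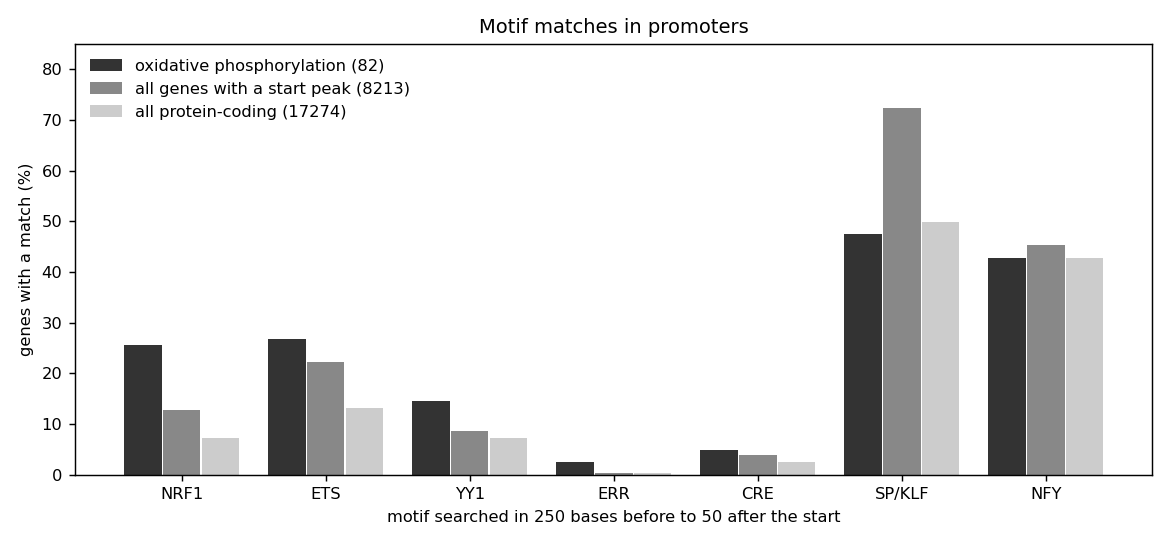
Share of promoters (%, y axis) that hold each of 7 motifs in 300 bases, for 82 oxidative phosphorylation genes (dark), 8213 genes with a start peak in any list (grey) and all 17274 genes with a promoter entry (light). The NRF1 bar stands at 25.6% for the oxidative phosphorylation genes and 7.25% for all genes, while the SP/KLF bar stands at 47.6% and 49.8%.

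Many of these genes share a promoter region with a neighbour. Among the 82 genes, 28 (34.1%) had the start of another gene on the opposite strand, pointing away, within 1 kb (overlaps of up to 200 bp included), against 14.4% of all genes. Atp5j, a stalk subunit of complex V, starts 148 bp from Gabpa, which encodes the DNA-binding part of the ETS factor GABP. Ndufb5 of complex I starts 308 bp from Mrpl47 of the mitochondrial ribosome, Sdhd 52 bp from Timm8b of mitochondrial protein import, and Ndufa7 10 bp from the ribosomal protein gene Rps28. A peak between such starts cannot be given to either gene. Start peaks stood at 14 converted, 23 resident and 26 monocyte-derived of the 28 paired genes, and at 19, 33 and 45 of the other 54, in the same order. Of all paired genes of the annotation 57.6% had a converted, 68.3% a resident and 78.7% a monocyte-derived start peak, and of all unpaired genes 27.1%, 34.2% and 39.4%, so paired genes had more start peaks in general. The converted share of the paired oxidative phosphorylation genes (50.0%) was below that of all paired genes, while their resident (82.1%) and monocyte-derived (92.9%) shares were above. The unpaired oxidative phosphorylation genes were above all unpaired genes in each list, at 35.2% converted, 61.1% resident and 83.3% monocyte-derived.

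Start peaks were present at 38 of the 100 genes in converted cells (38.0%, 29.1 to 47.8%), at 65 in resident cells (65.0%, 55.3 to 73.6%) and at 83 in monocyte-derived cells (83.0%, 74.5 to 89.1%). Over all 21631 genes the shares were 30.5%, 38.1% and 43.8% for the converted, resident and monocyte-derived lists. The genes formed a near nested order. All 38 genes with a converted start peak also had a resident and a monocyte-derived start peak. Over all genes, 6161 of the 6593 with a converted start peak also had the other 2, so this nesting was near the general rule. Start peaks in all 3 lists stood at 28.5% of all 21631 genes. Another 26 of the 100 genes had a start peak in the resident and monocyte-derived lists only (7.34% of all genes). A further 19 had it in the monocyte-derived list only (6.75%) and 1, Atp5l, in the resident list only (1.69%). The remaining 16 had none, against 53.7% of all genes. For 82 genes the start came from the promoter table, and for 18 either end of the gene was accepted, which cannot tell a start from an end. Atp5a1, Cox4i1, Ndufs1, Sdhc, Uqcrc2 and Uqcrq are among these 18.

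**Figure D2:**
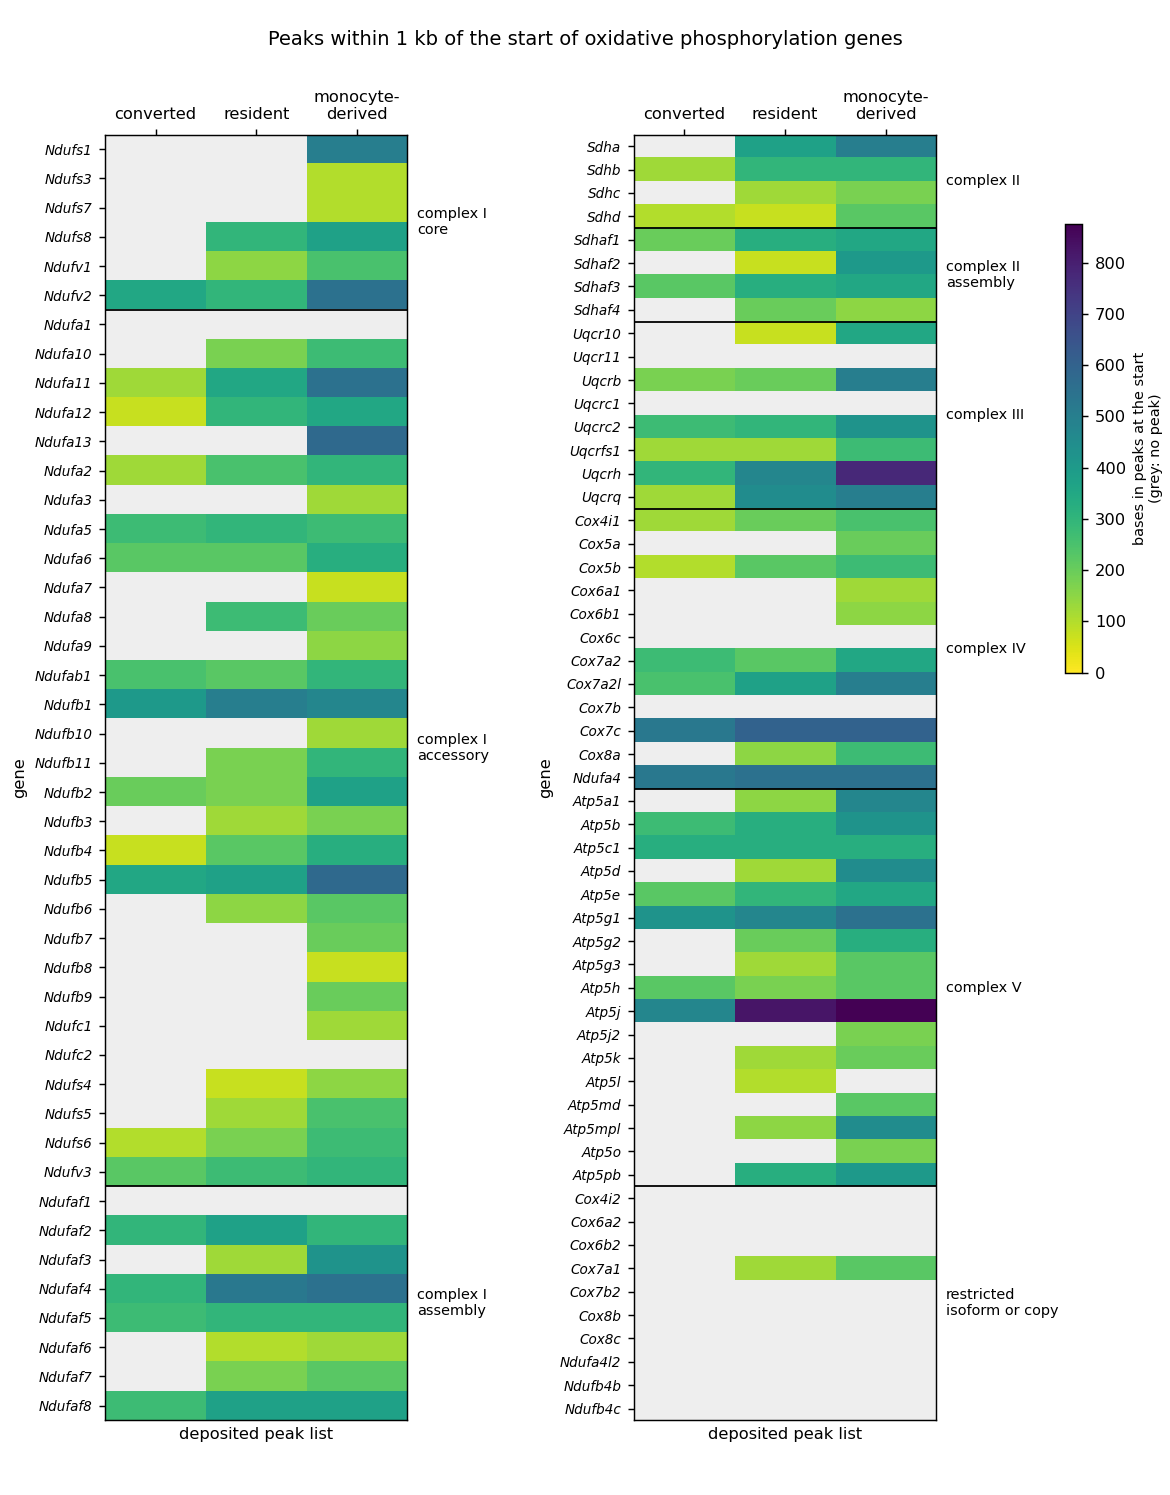
Bases in peaks within 1 kb of the start (colour, yellow for few to dark for many, grey for no peak) for 99 of the genes (rows, by complex) in the converted, resident and monocyte-derived lists (columns). Colour is present in 38, 65 and 82 rows of the converted, resident and monocyte-derived columns, and Atp5j has the darkest row with 475 converted, 825 resident and 875 monocyte-derived bases.

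The length of the lists bears directly on these counts. With every list cut to its 15552 peaks of smallest p-value, start peaks stood at 38 of the genes in converted cells, 50 in resident cells and 53 in monocyte-derived cells, against 30.5%, 30.3% and 30.8% of all genes. The intervals were 29.1 to 47.8%, 40.4 to 59.6% and 43.3 to 62.5%, so neighbouring intervals overlapped. At this length 5 of the genes had a converted but no resident start peak and 17 the reverse, while over all genes the shares were close, at 5.93% and 5.76%. Against monocyte-derived cells, 8 had a converted start peak alone (5.82% of all genes) and 23 a monocyte-derived start peak alone (6.16%). Between resident and monocyte-derived cells the counts were 12 (6.73% of all genes) and 15 (7.25%). The 5 genes with a converted and no resident start peak were Cox5b, Ndufv3, Sdhd, Ndufa6 and Uqcrfs1, and each had a resident start peak in the full list. The resident cut fell among peaks of 75 bp with a p-value of 8.27e-06, which were taken by chromosome name. Among these tied peaks, Atp5g2, Atp5mpl, Ndufs4 and Uqcr10 kept a resident start peak. Ndufa8, Ndufs8, Sdhaf2 and Sdhd lost it. The counts of 5 and 17 depend in part on that order.

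**Figure D3:**
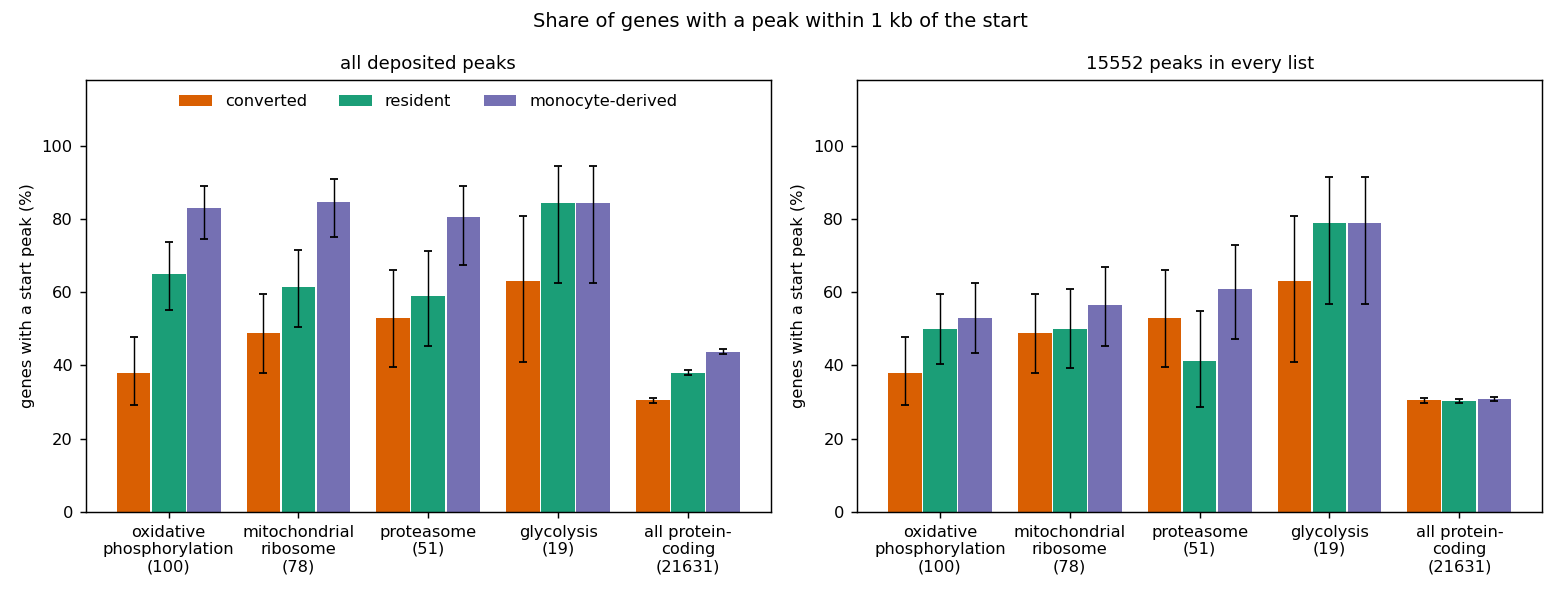
Share of genes with a start peak (%, y axis) in the converted, resident and monocyte-derived lists for the oxidative phosphorylation genes, 3 other gene sets and all genes, with all peaks (left) and with 15552 peaks in every list (right); bars carry 95% Wilson intervals over genes. At equal lengths the oxidative phosphorylation bars stand at 38.0%, 50.0% and 53.0%, while all genes stand at 30.5%, 30.3% and 30.8%.

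Sets of other widely used genes also had many start peaks with all peaks kept. The mitochondrial ribosome stood at 48.7% converted, 61.5% resident and 84.6% monocyte-derived. The proteasome stood at 52.9%, 58.8% and 80.4%, and glycolysis at 63.2%, 84.2% and 84.2%. These sets gave the following counts at equal lengths. Of 78 genes of the mitochondrial ribosome (Mrpl and Mrps), 38 had a converted, 39 a resident and 44 a monocyte-derived start peak. Of 51 proteasome genes (Psm) the counts were 27, 21 and 31, and of 19 glycolysis enzymes 12, 15 and 15, in the same order. The oxidative phosphorylation genes had the lowest converted share of the 4 sets, at 38.0%, against 48.7% for the mitochondrial ribosome, 52.9% for the proteasome and 63.2% for glycolysis, with overlapping intervals between it and the other sets. The 38.0% takes in the 10 restricted isoforms or copies, of which 0 had a converted start peak. The 78 subunits alone stood at 41.0% converted, also below the other sets. The difference between sets was not tested, as genes are not replicates.

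Genes with a monocyte-derived start peak were then asked whether another list had a start peak too. The choice goes through the list in which the set had its highest share, at 83.0% against 43.8% of all genes. Shares in the other lists are therefore not independent of that choice. The monocyte-derived peak was at the p-value floor at 32.5% of the oxidative phosphorylation genes so chosen, against 44.2% of all genes so chosen. Of 83 such oxidative phosphorylation genes, 38 (45.8%, 35.5 to 56.5%) also had a converted start peak, against 67.8% of all genes so chosen, and 64 (77.1%, 67.0 to 84.8%) a resident start peak, against 81.8%. Where the monocyte-derived peak was at the p-value floor, 26 of 27 also had a converted start peak (96.3%, against 96.7% of all genes) and 27 of 27 a resident start peak (against 99.4%). The gene without a converted start peak there was Ndufs8, an iron-sulfur core subunit of complex I, with a monocyte-derived peak of 375 bp at chr19:3912664-3913038 across its start. Above the floor, 12 of 56 (21.4%, 12.7 to 33.8%) also had a converted start peak, against 45.0% of all genes, and 37 of 56 (66.1%, 53.0 to 77.1%) a resident start peak, against 68.0%. The genes above the floor were also split by the p-value of the monocyte-derived peak. With a monocyte-derived p of at most 1e-06, 2 of 12 had a converted start peak (16.7%, against 55.6% of all genes) and 9 of 12 a resident start peak (75.0%, against 75.1%). Over 1e-06, 10 of 44 had a converted start peak (22.7%, against 42.2%) and 28 of 44 a resident start peak (63.6%, against 66.1%). Above the floor the mitochondrial ribosome had a converted start peak at 11 of 39 genes (28.2%) and the proteasome at 10 of 23 (43.5%).

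**Figure D4:**
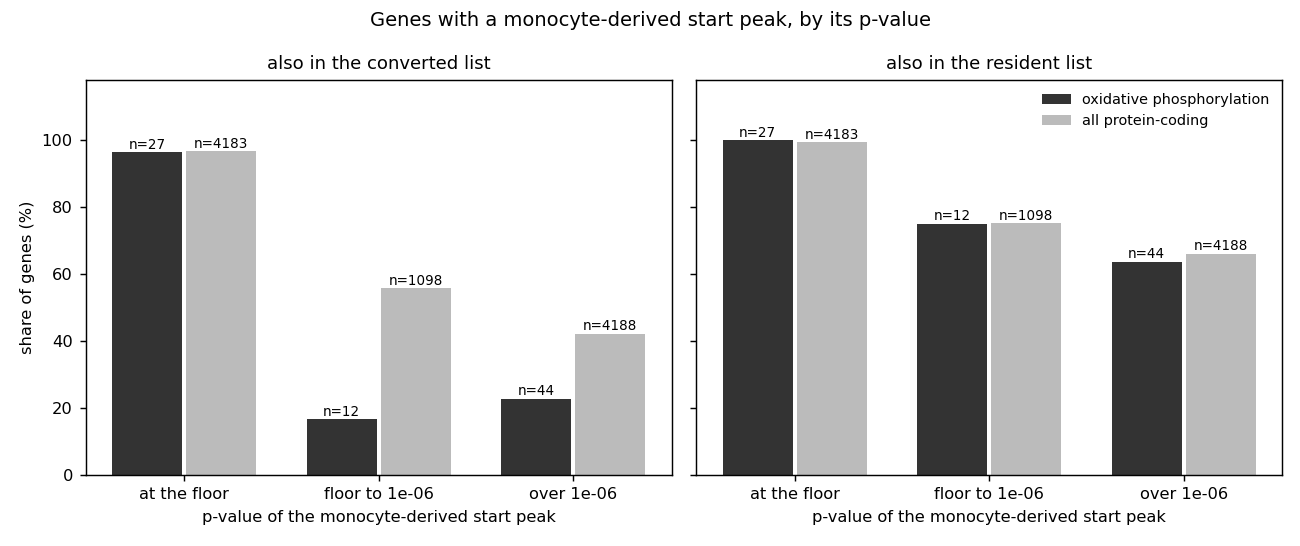
Share of genes with a monocyte-derived start peak that also have a converted (left) or a resident (right) start peak (%, y axis), by the p-value of the monocyte-derived peak (x axis), for oxidative phosphorylation genes (dark) and all protein-coding genes (light), with the number of genes over each bar. In the left panel the bars at over 1e-06 stand at 22.7% and 42.2%, and in the right panel at 63.6% and 66.1%.

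Complex I takes electrons from NADH. All 7 of its nuclear core subunits, which carry the cofactors, had a monocyte-derived start peak, while 3 had a resident and 1 a converted start peak. The converted start peak was at Ndufv2, an iron-sulfur subunit, where 350 bases near the start lay in converted, 300 in resident and 550 in monocyte-derived peaks. Ndufs8 and Ndufv1, which binds NADH, had resident and monocyte-derived start peaks. Ndufs1, the largest subunit, Ndufs3 and Ndufs7 had monocyte-derived start peaks only, with p-values between 3.00e-06 at Ndufs7 and 6.91e-06 at Ndufs3, all far from the floor. Ndufs1 had 500 bases covered in the monocyte-derived list, and Ndufs3 and Ndufs7 had 100 each. Of 30 accessory subunits, 12 had a converted, 19 a resident and 28 a monocyte-derived start peak. At equal lengths the 37 complex I subunits had 13 converted, 16 resident and 19 monocyte-derived start peaks. Beside the counts by complex here and below, all genes stood at 30.5% converted, 38.1% resident and 43.8% monocyte-derived with all peaks. At equal lengths all genes stood at 30.5%, 30.3% and 30.8%.

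Among the accessory subunits, Ndufa5 and Ndufab1, the mitochondrial acyl carrier protein, had converted start peaks at the floor. Ndufa5 had peak widths of 275 bp in converted, 300 bp in resident and 275 bp in monocyte-derived cells. Ndufb1 covered 400, 500 and 475 bases in the converted, resident and monocyte-derived lists, and its p-value was at the floor in the converted list while it was 1.5e-06 in the resident and 4.87e-06 in the monocyte-derived list. P-values of different lists may not share a scale, so these cannot be read as a difference in openness. Ndufa13, a subunit also known as GRIM-19, had 0 converted, 0 resident and 5 monocyte-derived regions within 10 kb, of which 4 lay at its start and 1 at the start of its neighbour Tssk6, 164 bp away. The smallest p-value among its 5 start peaks was 2.07e-07. Ndufc1 had a start peak in the monocyte-derived list only, while a region 2478 bp from the start of Naa15 (chr3:51413364-51413538) was in the converted and resident lists only. Ndufa1, on chromosome X, and Ndufc2, on chromosome 7, had no region in any list within 10 kb. Of the 19 genes of the whole set with a start peak in the monocyte-derived list only, 13 belonged to complex I, 3 to complex IV and 3 to complex V.

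Assembly factors insert cofactors into complexes I and II or hold their parts together before assembly ends, and 11 of 12 had both a resident and a monocyte-derived start peak and 6 a converted one. Ndufaf1 had no region in any list. Ndufaf2, Ndufaf5 and Ndufaf8 had start peaks at the floor in all 3 lists, and at Ndufaf2 and Ndufaf5 their widths were alike, at 300 and 275 bp in converted, 300 and 300 bp in resident and 300 and 300 bp in monocyte-derived cells. Ndufaf8 had 275 bp in converted and 375 bp in resident and monocyte-derived cells. Sdhaf2, which helps attach FAD to Sdha, had 1 converted, 1 resident and 5 monocyte-derived regions, and its start is 35 bp from that of Cpsf7. A monocyte-derived region lay on the Sdhaf2 start itself (chr19:10525089-10525238), while the resident start peak lay 445 bp from the start of Cpsf7. Of the 5 assembly factors whose monocyte-derived start peak was above the floor, 0 had a converted and 5 a resident start peak, against 45.0% and 68.0% of all genes above the floor. At equal lengths the assembly factors had 6 converted, 8 resident and 10 monocyte-derived start peaks.

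Complex II oxidises succinate and belongs to the citric acid cycle as well. Sdhb, the iron-sulfur subunit, and Sdhd had a start peak in all 3 lists, and Sdha, the flavoprotein, and Sdhc, a membrane anchor, in the resident and monocyte-derived lists. Sdha had 375 resident and 500 monocyte-derived bases covered. Sdhb had 1 converted, 4 resident and 6 monocyte-derived regions, so that its net of converted minus resident was -3 and of converted minus monocyte-derived -5. The net counts regions found in the first list and not the second, and subtracts those found in the second and not the first. The region in all 3 lists lay on the Sdhb start (chr4:140961089-140961413), and the 3 further regions of the resident list lay 8, 1743 and 3308 bp from the start of Atp13a2, its neighbour.

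Complex III, which passes electrons from coenzyme Q to cytochrome c, had a start peak in converted cells at 5 of its 8 genes and in resident and in monocyte-derived cells at 6. Uqcrc2, a core protein, was at the floor in all 3 lists with 275 converted, 300 resident and 425 monocyte-derived bases covered. Uqcrfs1, the Rieske iron-sulfur protein, had weak converted and resident peaks, at p-values of 9.72e-06 and 1.05e-05, and 1.85e-07 in the monocyte-derived list. Uqcrh covered 300, 475 and 775 bases in converted, resident and monocyte-derived cells, the most of the complex. Uqcr10 had a resident and a monocyte-derived start peak. Uqcrc1 had no region within 10 kb, and Uqcr11 had 1 converted, 2 resident and 2 monocyte-derived regions, all at the start of Mbd3.

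Complex IV, cytochrome c oxidase, reduces oxygen to water. Of 12 of its common nuclear genes, 6 had a converted, 7 a resident and 10 a monocyte-derived start peak, and at equal lengths 6, 5 and 6. Cox7c had peaks at the floor in all 3 lists with 525 converted, 600 resident and 600 monocyte-derived bases covered. Ndufa4, named for complex I but found with complex IV, was at the floor in all 3 with 525, 550 and 550 bases in the same order, and starts 379 bp from Phf14. Cox7a2l, known as a supercomplex factor, covered 250, 375 and 500 bases. Cox5a, Cox6a1 and Cox6b1 had a start peak in monocyte-derived cells only. Cox8a had 150 resident and 275 monocyte-derived bases covered and no converted start peak. Cox6c had no region in any list, and Cox7b only regions at the starts of its neighbours Magt1 and Atp7a, which were in all 3 lists.

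Complex V, the ATP synthase, had a converted start peak at 6 of its 17 genes, a resident one at 14 and a monocyte-derived one at 16. At equal lengths the counts were 6, 13 and 10, so that resident exceeded monocyte-derived here. The 7 genes with a resident and no converted start peak at equal lengths were Atp5a1, Atp5g2, Atp5g3, Atp5k, Atp5l, Atp5mpl and Atp5pb, and 0 had the reverse. Of these 7, Atp5g2 and Atp5mpl kept the resident start peak only through the order of chromosome names among tied peaks. Of the F1 motor, the gamma (Atp5c1), beta (Atp5b) and epsilon (Atp5e) subunits had a start peak in all 3 lists, while alpha (Atp5a1) and delta (Atp5d) lacked it in converted cells. Atp5c1 was alike in the 3 lists, with a peak of 325 bp at the floor and the same edges in each (chr2:10080314-10080638). Atp5b covered 275 bases in converted, 325 in resident and 425 in monocyte-derived cells, and Atp5a1 covered 150 in resident and 475 in monocyte-derived cells.

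Among the c-ring genes, which encode the same mature protein with different import sequences, Atp5g1 had a start peak in all 3 lists with 425 converted, 475 resident and 550 monocyte-derived bases. Atp5g2 and Atp5g3 had none in converted cells, 200 and 125 bases in resident cells and 325 and 225 in monocyte-derived cells. Atp5j, with Gabpa beside it, had 475 converted, 825 resident and 875 monocyte-derived bases in peaks, the widest stretch of all 100 genes in the resident and monocyte-derived lists. Atp5l had a resident peak of 100 bp at chr9:44920664-44920763, on its start, with a p-value of 8.27e-06 and no peak in the other lists. Atp5j2, Atp5md and Atp5o, the stalk protein OSCP, had a start peak in monocyte-derived cells only.

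**Figure D5:**
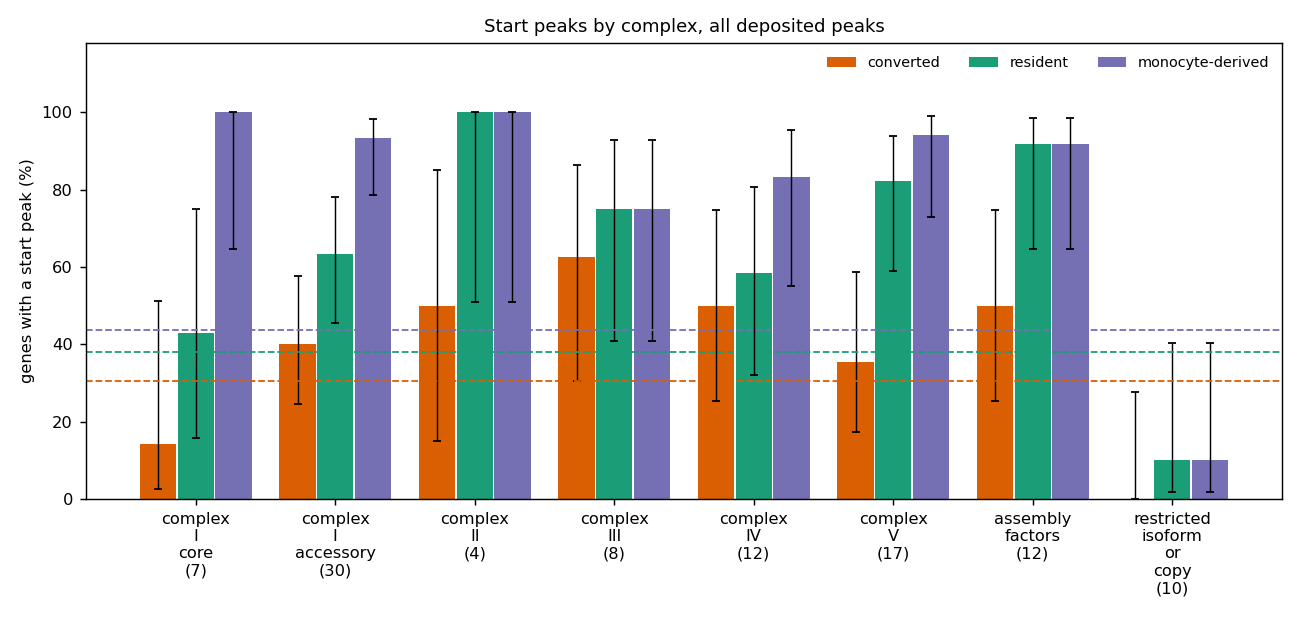
Share of genes with a start peak (%, y axis) by complex in the converted, resident and monocyte-derived lists, all peaks, with 95% Wilson intervals over genes and the share of all protein-coding genes as dashed lines in the same colours; the number of genes is under each name. The complex I core stands at 14.3%, 42.9% and 100%, complex V at 35.3%, 82.4% and 94.1%, and the restricted isoforms at 0.0%, 10.0% and 10.0%.

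Of 10 tissue-restricted isoforms or gene copies, 0 had a converted, 1 a resident and 1 a monocyte-derived start peak, and it was Cox7a1 in both lists. Cox7a1 is the heart and muscle form of Cox7a2. Its peaks covered 0 converted, 125 resident and 225 monocyte-derived bases, with p-values of 1.2e-05 and 1.88e-06 in the resident and monocyte-derived lists, while Cox7a2 was at the floor in all 3 lists with 275, 225 and 350 bases. No list had a region at Cox4i2, Cox6a2, Cox6b2, Cox7b2, Cox8b or Cox8c, the lung, muscle or testis forms, against start peaks at Cox4i1 in all 3 lists, at Cox6a1 and Cox6b1 in the monocyte-derived list and at Cox8a in the resident and monocyte-derived lists. Cox7b, like Cox7b2, had no start peak. At equal lengths the contrast was smaller. Cox6a1 and Cox8a then had no start peak in any list, like Cox6a2, Cox8b and Cox8c, while Cox4i1 kept it in the converted and resident lists, Cox7a2 in all 3 and Cox6b1 and Cox7a1 in the monocyte-derived list. Ndufa4l2, a paralog of Ndufa4 known to be induced by hypoxia, had 1 region in the resident and monocyte-derived lists, 3640 bp from the nearer end of the gene. Ndufb4b and Ndufb4c, named as copies of Ndufb4, had no region, and reads shared among near-identical copies may be lost or split.

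Counting all regions that overlap a gene or the 10 kb flanking it on either side, 87 of the 100 genes had a region in at least 1 list, against 63.5% of all genes. The regions numbered 208, and none lay in the windows of more than 1 of these genes. Of the 208, 77 (37.0%) were in the converted, 136 (65.4%) in the resident and 197 (94.7%) in the monocyte-derived list, and 70 (33.7%) were in all 3. Of all 29675 regions near protein-coding genes the shares were 37.6% in the converted, 57.1% in the resident and 86.7% in the monocyte-derived list and 30.6% in all 3, so the converted share was near the background. The regions in 1 list alone numbered 0 in converted, 9 in resident and 67 in monocyte-derived cells (0.0%, 4.33% and 32.2%), against 1.53%, 10.0% and 37.7% of all regions near genes. A start of these genes held 130 of the regions (48 converted, 88 resident and 123 monocyte-derived), the start of another gene 49 (21, 35 and 47) and sites away from starts 29 (8, 13 and 27).

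Converted minus resident cells had a summed net of -59 regions over the set, with 5 regions in converted cells only and 64 in resident cells only. The net was below 0 at 44 genes (29.2% of all genes) and above 0 at 2 (4.44%), Ndufb2 and Ndufb5. The lowest nets were -3 at Ndufs8 and Sdhb, followed by -2 at 13 genes, such as Atp5a1, Atp5d and Atp5j. Ndufs8 had 0 converted and 3 resident regions, of which 1 lay on its start and 2 at the start of Tcirg1, its neighbour. Converted minus monocyte-derived cells had a net of -120, with 2 regions against 122, below 0 at 68 genes (45.3% of all) and above 0 at 0 (1.81%). Its lowest nets were -5 at Ndufa13 and Sdhb, -4 at Sdhaf2 and -3 at 9 genes (Atp5a1, Atp5b, Atp5d, Ndufaf3, Ndufb6, Ndufc1, Ndufs7, Ndufs8 and Ndufv1). Resident minus monocyte-derived cells had a net of -61, with 11 regions against 72, below 0 at 40 genes (35.0% of all) and above 0 at 3 (7.59%), Atp5l, Cox4i1 and Sdhaf4. Its lowest nets were -5 at Ndufa13, -4 at Sdhaf2, -3 at Ndufc1 and Ndufs7 and -2 at 13 genes, Atp5b among them. The lists' lengths move with all 3 nets, and at equal lengths the nets were -20, -26 and -6 in the order given.

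At genes where all 3 lists had a start peak the peaks differed in extent. For these 38 genes the bases covered near the start had a median of 237.5 in converted, 300 in resident and 350.0 in monocyte-derived cells. Converted cells had fewer bases than resident cells at 29 of 38 genes and more at 6, against fewer at 68.2% of the 6161 genes of the whole series with a start peak in all lists. Converted cells had fewer than monocyte-derived cells at 34 and more at 0, against fewer at 91.0%. Resident cells had fewer than monocyte-derived cells at 29 and more at 3, against fewer at 79.9%. The strongest start peak of a gene of the set was at the p-value floor at 14 of 38 genes in converted cells (36.8%). The counts were 19 of 65 in resident cells (29.2%) and 27 of 83 in monocyte-derived cells (32.5%). Over all genes with a start peak in the list, the shares were 37.9% converted, 31.1% resident and 44.2% monocyte-derived. The widest peaks at the floor were at Atp5c1 and Atp5j (325 bp each), Cox7c and Ndufaf2 (300 bp each) and Cox7a2, Ndufa5, Ndufaf5, Ndufaf8 and Uqcrc2 (275 bp each) in converted cells. In resident cells they were at Atp5j (400 bp), Ndufaf8 and Uqcrq (375 bp each) and Atp5c1, Cox7c, Ndufa4 and Sdhaf3 (325 bp each), and in monocyte-derived cells at Atp5g1 (550 bp), Atp5j and Ndufb5 (450 bp each), Atp5b (425 bp) and Ndufaf8, Ndufs8 and Ndufv2 (375 bp each). The centre of the strongest peak lay a median of 62.3 bp from the start in converted, 67.0 bp in resident and 43.5 bp in monocyte-derived cells.

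Other genes of the pathway gave counts of the same kind. Over all genes, start peaks stood at 30.5% in the converted, 38.1% in the resident and 43.8% in the monocyte-derived list. Of 13 genes of the citric acid cycle, which feeds NADH and succinate to the chain, 9 had a converted, 11 a resident and 13 a monocyte-derived start peak. Dlst, of the oxoglutarate dehydrogenase complex, had 0 converted, 2 resident and 3 monocyte-derived regions. Of 14 genes of electron carriers and coenzyme Q synthesis, 8, 11 and 12 had a start peak in that order of groups. Coq2, which joins the ring and tail of coenzyme Q, had 1 converted, 0 resident and 5 monocyte-derived regions. Of 21 assembly and copper delivery genes for complexes III to V the counts were 10, 12 and 17. Bcs1l, which loads the Rieske protein into complex III, had 1 converted, 3 resident and 4 monocyte-derived regions. Of 13 transcription factors and coactivators they were 10, 11 and 12, and Ppargc1b, the coactivator PGC-1β, had 1 converted, 2 resident and 4 monocyte-derived regions and no converted start peak. Gabpb1, the partner of Gabpa in GABP, had 0 converted, 2 resident and 2 monocyte-derived regions. At equal lengths the counts for these 4 lists were 9, 11 and 11, then 8, 8 and 10, then 10, 8 and 8, and then 10, 8 and 10. The shares of all genes at this length were 30.5%, 30.3% and 30.8%.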

How the data were processed

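ATAC-seq peak lists of 9 samples in 3 groups were used, 1 merged list per group. Per the submitters' processing notes, alignment used Bowtie2 2.2.9 and the build mm10 (GRCm38). Not given in the sources used here are the peak caller, its cutoff, the Tn5 shift, duplicate removal and the merging, all of which affect which peaks a list holds. Each list gives a p-value per peak as the authors deposited it, with no counts, and served here to order or select the peaks of a single list. Lists hold chromosomes 1 to 19 and X.

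Gene positions and starts came from RefSeq tables of GRCm38.p6. Peaks that share 1 bp or more formed a region, and regions were counted over each gene with 10 kb of flank. Lists were also compared at equal lengths, ties in p-value going to wider peaks. Peaks still tied were taken by chromosome name in text order and then by position, an order that carries no biological meaning. Promoters were searched on both strands for the motifs named in the report, with overlaps between motifs allowed. Depth per sample is unknown, so precision is limited to counting over genes. The genes, lists and tests were chosen with earlier results of these data known. Genes were named by a written rule: no start peak in any list, a start peak missing from the monocyte-derived list, the 5 largest nets in each direction, the 5 smallest p-values per list (ties to the widest) and isoform pairs. Other genes are examples named after their values were seen. Scripts were tested on simulated data and used Python 3.11.15, numpy 2.4.6, pandas 2.3.3, scipy 1.17.1 and matplotlib 3.10.9. Values of a few single genes are not reported here. RNA-seq was not analysed here.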

Additional observations from a re-analysis of the deposited data

How the results depend on the processing

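Under other settings 34 values stayed within the 95% interval of a share or within 1.5 times a net, 14 did not, and none changed sign. With 15552 peaks in every list, the share of genes with a start peak was 50.0% in resident and 53.0% in monocyte-derived cells, and the nets were -20 for converted minus resident, -26 for converted minus monocyte-derived and -6 for resident minus monocyte-derived cells. With p-values of at most 1e-05, the resident share was 54.0% and the net of converted minus resident -32. With p-values of at most 1e-10, the shares were 14.0% in converted, 19% in resident and 27% in monocyte-derived cells, against 11.6%, 11.8% and 19.3% of all genes, and the nets were -5, -20 and -15 in the order above. Over the 78 subunits alone the monocyte-derived share was 91%. The cause of these changes was not tested, save that the first 3 settings keep fewer peaks. Other start windows, gene windows and merging rules moved nothing past these limits. Using the promoter table alone, or either gene end for every gene, was chosen after seeing the data and gave converted shares of 40.2% and 38.0%, resident shares of 68.3% and 62.0% and monocyte-derived shares of 86.6% and 79.0%. No paired analysis was possible because the 3 samples of a group were deposited as a single merged list, and for that reason replicates were not left out in turn. With depth unknown, a missing peak is a site not detected.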
